A study of Homo sapiens with 6 samples.

Results

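The caveolins and cavins described here were 6 genes of the caveolar coat: CAV1, CAV2, CAVIN1 (also called PTRF), CAVIN2 (SDPR), CAVIN3 (PRKCDBP) and EHD2. They were chosen by name, and the group was drawn up because CAVIN2 had one of the lowest ratios of HGF over vehicle at 24 hours, so that this ratio is given below as a description and was not tested. The 6 genes were 6 of 19775 genes named by a single symbol, and were read by 14 of the 54675 probe sets of the array. All 6 had at least 1 probe set above the floor of detection in all 6 arrays, so that none passed the filter through 1 treatment alone.

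The cells were DU145, an established androgen-independent epithelial line from a brain metastasis of a prostate carcinoma. They were placed in medium with 5% charcoal-treated serum and after 1 day received 25 ng/ml hepatocyte growth factor (HGF), the ligand of the receptor tyrosine kinase MET, or vehicle. RNA was taken at 2, 8 and 24 hours, which gave the groups HGF 2 h, HGF 8 h and HGF 24 h and their controls vehicle 2 h, vehicle 8 h and vehicle 24 h. Each of these 6 conditions was 1 Affymetrix U133 Plus 2.0 array, so no condition had a replicate and no ratio at a single time had a test. All 6 arrays were of 1 line, and the labels name neither the number of cultures behind an array nor a genotype other than that of the line.

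Caveolae are flask-shaped pits of the plasma membrane. Caveolins are integral membrane proteins that insert into the inner leaflet and scaffold the pit, and cavins are cytosolic proteins that assemble on the caveolin-coated membrane as a peripheral coat. Caveolae buffer membrane tension, and CAV1 is a long-known phosphorylation target of Src family kinases.

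Values are intensities scaled so that the mean of each array was 150, with values under 30 set to 30 for ratios. A gene was called past the fold rule where at least 1 of its probe sets differed 2-fold between the HGF and the vehicle array and the mean log2 ratio over all its probe sets was at least 0.50 in the same direction. Intensities of different probe sets are not comparable with each other, since probes differ in affinity. The spread available was the SD of a gene's log2 value over the 3 vehicle arrays, which also holds time in culture and ran from 0.11 for CAVIN1 to 0.29 for CAVIN2. It is a spread of single arrays, and a ratio takes in 2 arrays, so that it understates the spread of a ratio.

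At 8 hours the 6 members split. CAVIN2 was 2.99-fold lower in the HGF array than in the vehicle array, CAVIN1 was 2.06-fold higher, and EHD2 was 1.78-fold higher over its 3 probe sets. These 3 were the members past the fold rule at 8 hours, 2 higher and 1 lower, against a background of 5.45% higher and 16.2% lower among the 8936 genes above the floor in all 6 arrays. A share of 1 in 6 lower was near the background. This split of all genes at 8 hours moved with the scaling, to 11.1% higher and 10.3% lower under quantile normalization and to 7.69% and 13.4% in that order with centred ratios. Under quantile normalization CAV2 joined the members past the rule, which were then 2 higher and 2 lower, and with centred ratios they stayed at 2 and 1. With the 3 vehicle arrays averaged as the baseline CAVIN1 no longer passed, at 0.95, and CAVIN2 and EHD2 did, where 3.04% of genes were higher and 8.7% lower. At 2 hours no member passed, where 0.806% of genes were higher and 0.0895% lower. At 24 hours CAVIN2 alone passed, on the ratio by which it was chosen, where 1.9% of genes were higher and 0.94% lower. Between the vehicle arrays no member passed, while 0.817% of genes did so for 8 over 2 hours, 2.7% for 24 over 2 hours and 6.66% for 24 over 8 hours. In limma, no gene of 10002 was called for HGF after adjustment, and the members' values in that fit are given below.

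**Figure D1:**
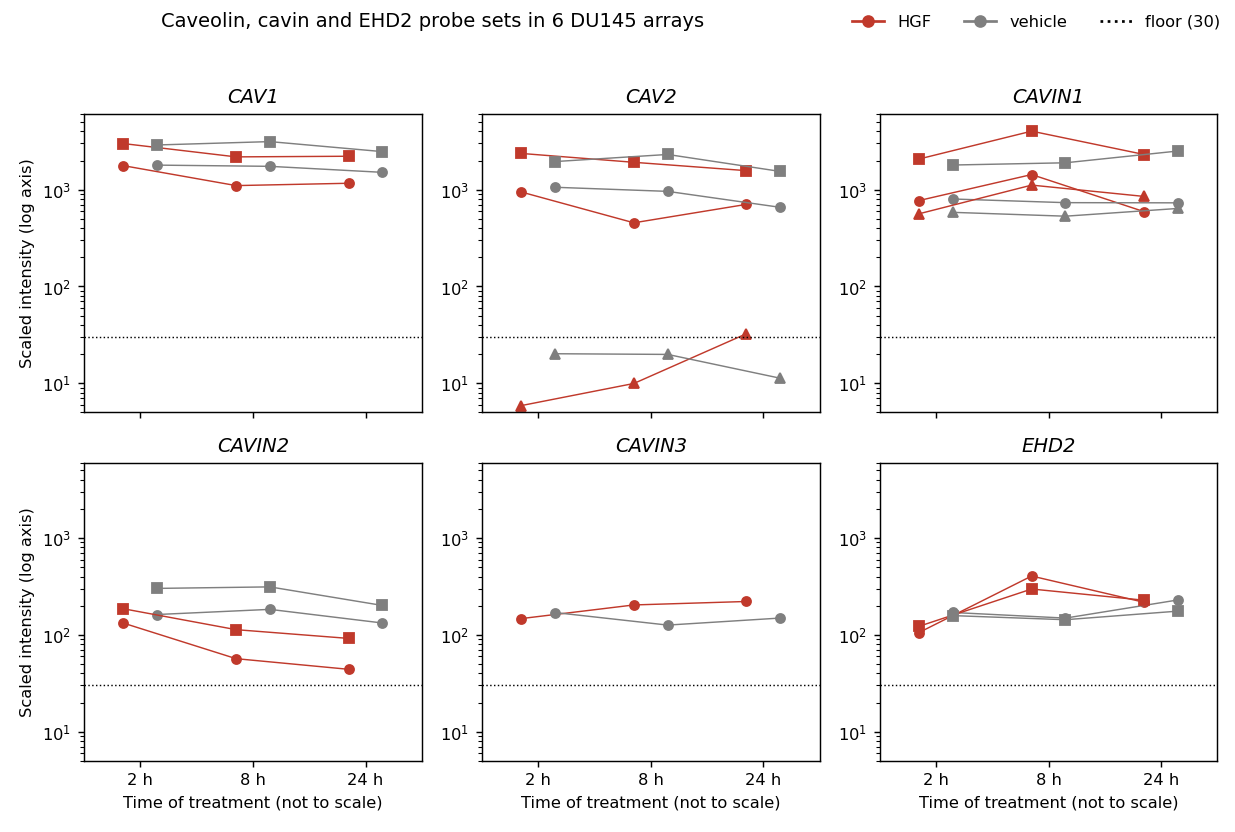
Scaled intensity (log axis) of each probe set that passed the floor of 30 in at least 1 array, for HGF (red, left) and vehicle (grey, right) at 2, 8 and 24 hours; each line and marker shape is 1 probe set and each point 1 array. Both CAVIN2 probe sets lay lower in the HGF array than in the vehicle array at each time, and the CAVIN1 and EHD2 probe sets were highest in the HGF array of 8 hours. The share of all genes with such orders of arrays was not taken.

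The stretch of 250 bases before the start of transcription is shown for the member that was lowest at 8 hours, for CAV1, which was also lower, and for EHD2, which was higher. The sequences are those of RefSeq on GRCh38.p14, written 5′ to 3′ along the gene's strand, with motif matches in capitals. CAVIN2 lies at chr2:191847089-191847338 on the minus strand, CAV1 at chr7:116524759-116525008 on the plus strand and EHD2 at chr19:47713172-47713421 on the plus strand. The table gave promoters for 4 of the 6 members, and CAVIN1 and CAVIN3 had no entry.
CAVIN2: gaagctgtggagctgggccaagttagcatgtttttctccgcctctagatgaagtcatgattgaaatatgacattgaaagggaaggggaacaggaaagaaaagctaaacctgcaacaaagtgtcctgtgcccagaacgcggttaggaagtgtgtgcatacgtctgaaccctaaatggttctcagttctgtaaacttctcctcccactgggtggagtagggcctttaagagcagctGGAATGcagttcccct
CAV1: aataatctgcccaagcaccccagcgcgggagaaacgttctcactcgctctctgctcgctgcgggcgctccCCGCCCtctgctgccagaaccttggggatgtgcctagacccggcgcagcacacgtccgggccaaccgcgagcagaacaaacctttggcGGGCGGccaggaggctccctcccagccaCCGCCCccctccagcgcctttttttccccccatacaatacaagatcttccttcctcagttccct
EHD2: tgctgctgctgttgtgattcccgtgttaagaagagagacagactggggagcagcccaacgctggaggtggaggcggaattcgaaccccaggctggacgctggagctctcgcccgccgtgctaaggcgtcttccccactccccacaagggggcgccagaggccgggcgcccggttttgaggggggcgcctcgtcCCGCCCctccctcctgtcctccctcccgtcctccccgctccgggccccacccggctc
The motifs searched on both strands were AP-1 (TGANTCA), CRE (TGACGTCA), the GC box (GGGCGG), ETS (CCGGAAG), TEAD (CATTCC), the TATA box (TATAAA) and the CArG box. CAVIN2 held 1 match, the TEAD letters on the other strand at -16 to -11 from the start, which 12.0% of 27305 promoters of that length held somewhere. CAV1 held 3 GC boxes, EHD2 1 and CAV2 6, and 42.2% of all promoters held at least 1. The remaining motifs had no match in these 4 windows, and their shares over all promoters were 6.6% for AP-1, 1.8% for CRE, 8.8% for ETS, 11.2% for TATA and 1.1% for the CArG box. GC content was 48.0% for CAVIN2, 63.6% for CAV1, 69.6% for EHD2 and 83.2% for CAV2, against a median of 57.6% over all promoters. These matches describe the letters of the windows, and no binding was measured.

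CAVIN2 encodes a phosphatidylserine-binding cavin that bends the caveolar membrane. Its probe set 218711_s_at read 132, 56.7 and 44.0 in the HGF arrays of 2, 8 and 24 hours, against 162, 183 and 132.5 in the vehicle arrays. Probe set 222717_at read 186, 113 and 91.8 with HGF, against 302, 313 and 201 with vehicle. The low ratio of the 24 hour pair is what the gene was chosen by. On 218711_s_at the HGF array of 2 hours was level with the vehicle array of 24 hours. The HGF arrays of 2 and 8 hours both lay below the vehicle arrays of those times for CAVIN2 as for 25.5% of all genes, and CAVIN2 was the only member of which this held.

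The log2 ratio of CAVIN2, as the mean of both probe sets came to -0.50 for the pair of 2 hours, -1.58 for that of 8 hours and -1.36 for that of 24 hours. Of the 8936 genes, 1.9% had a lower ratio at 2 hours and 1.0% at 8 hours. The ratio of 2 hours missed the rule because neither probe set reached 2-fold, and it was larger than the SD of 0.29 over the vehicle arrays. At 24 hours only 6 genes ranked below CAVIN2, which stood at rank 7 from the lowest. The limma fit to the 4 arrays of 2 and 8 hours, which leaves out the ratio that chose the gene, gave CAVIN2 a log2 difference of -1.04 (SE 0.32) with an unadjusted p of 0.013 and a Benjamini-Hochberg adjusted p of 0.898. In that fit 4.84% of 10002 genes had an unadjusted p under 0.05, no gene passed after adjustment, and the smallest adjusted p was 0.138.

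Along the time course, in the HGF arrays, the CAVIN2 log2 value was lower by 0.97 at 8 hours than at 2 hours and lower by 1.30 at 24 hours than at 2 hours. Both steps passed the fold rule, as did 13.7% of genes for 8 over 2 hours and 4.95% for 24 over 2 hours in either direction, and the second step holds the HGF array of 24 hours, whose low value chose the gene. In the vehicle arrays 8 over 2 hours was 0.11 and 24 over 2 hours was -0.44, and neither passed. The vehicle array of 24 hours was thus the lowest of the vehicle arrays for CAVIN2, and the HGF array of 24 hours stood at -1.86 relative to the averaged earlier vehicle arrays. Fitted over both treatments in limma, the difference of 24 over 2 hours was -0.87 (SE 0.30), a description, since it too holds the HGF array of 24 hours. The 3′ to 5′ signal ratio of the ACTB control probe sets also rose with time. It was 1.17, 1.36 and 1.63 in the vehicle arrays of 2, 8 and 24 hours, and 1.13, 1.31 and 1.71 in the HGF arrays. Its part in the differences between times was not tested.

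CAV1, the main structural caveolin outside muscle, read 1768, 1101 and 1164 on 203065_s_at in the HGF arrays of 2, 8 and 24 hours, against 1792, 1741 and 1509 in the vehicle arrays. Probe set 212097_at read 2991, 2180 and 2213 with HGF, against 2894, 3135 and 2470 with vehicle. The HGF arrays of 8 and 24 hours lay below all 3 vehicle arrays on both probe sets, and the 2 hour pair was level. The share of all genes with this order of arrays was not taken, nor for the orders given below for other genes. Its log2 ratios were 0.01, -0.59 and -0.27 in time order. At 8 hours CAV1 was 1.51-fold lower, 81.1% of genes had a higher ratio, and the gene did not reach the rule because neither probe set was 2-fold lower.

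CAV2, which forms hetero-oligomers with CAV1, was less uniform. Probe set 203323_at read 946, 454 and 705 in the HGF arrays, against 1058, 960 and 657 in the vehicle arrays, and its log2 ratio at 8 hours was -1.08. Probe set 203324_s_at read 2366, 1916 and 1571 with HGF, against 1950, 2309 and 1542 with vehicle, and its ratio at 8 hours was -0.27. The probe sets thus had the same direction at 8 hours with sizes that differed, and opposite directions at 2 hours. The third, 213426_s_at, was under the floor except for 32.5 in the HGF array of 24 hours. Over the gene the log2 ratios were 0.04, -0.45 and 0.08 at 2, 8 and 24 hours, and the first and last lay within the vehicle SD of 0.21.

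CAVIN1 is the cavin without which caveolae do not form. Its probe set 208789_at read 2073, 4020 and 2306 in the HGF arrays of 2, 8 and 24 hours, against 1796, 1894 and 2507 in the vehicle arrays. Probe set 1557938_s_at read 772, 1432 and 592 with HGF, against 801, 734 and 731 with vehicle, and 208790_s_at read 563, 1114 and 851, against 583, 532 and 640. On all 3 the HGF array of 8 hours was the highest of the 6 arrays. The log2 ratios at 8 hours were 0.96, 1.09 and 1.07 in the order 1557938_s_at, 208789_at and 208790_s_at, and their mean of 1.04 was higher than that of 97.6% of genes. At 2 hours the gene's ratio was 0.04 and at 24 hours it was -0.00, where the 3 probe sets ranged from -0.30 to 0.41. The HGF array of 24 hours was past the fold rule below that of 8 hours, and 7.11% of genes passed in either direction between those arrays.

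CAVIN3, which binds protein kinase C delta, had 1 probe set, 213010_at. It read 147, 204 and 221 in the HGF arrays of 2, 8 and 24 hours, against 170, 126 and 149 in the vehicle arrays. The HGF arrays of 8 and 24 hours lay above all vehicle arrays and that of 2 hours lay among them. The log2 ratios were -0.21, 0.69 and 0.57, of which the last 2 exceeded the vehicle SD of 0.22 and none reached 2-fold. At 24 hours 4.4% of genes had a higher ratio.

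EHD2 is an ATPase of the Eps15 homology domain family that rings the neck of the caveola and restrains it at the surface. Probe set 221870_at read 106, 405 and 217 in the HGF arrays, against 170, 149 and 229 in the vehicle arrays. Probe set 45297_at read 123, 298 and 228 with HGF, against 158, 143 and 176 with vehicle, and 205341_at was under the floor in all 6 arrays, with a highest reading of 27.2. On both detected probe sets the HGF array of 2 hours was the lowest of the 6 arrays and that of 8 hours the highest. The gene's log2 ratios were -0.35, 0.83 and 0.10 at 2, 8 and 24 hours, with the probe set under the floor counted as 0. Between the HGF arrays EHD2 was past the fold rule upward at 8 over 2 hours and at 24 over 2 hours, steps with the shares of all genes given above for CAVIN2.

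**Figure D2:**
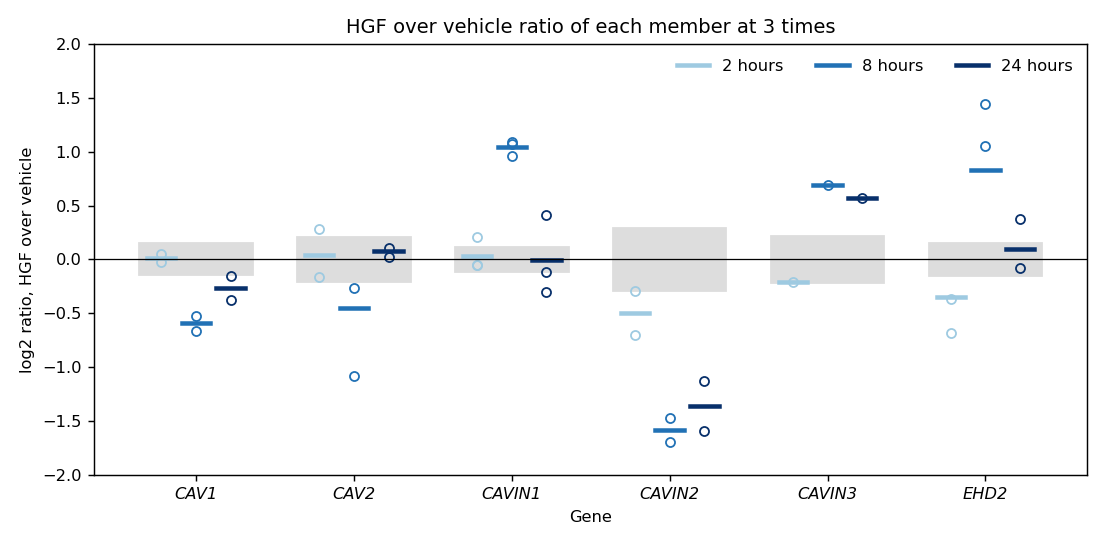
Log2 ratio of HGF over vehicle for each member at 2, 8 and 24 hours (light to dark); open circles are probe sets detected in more than 1 array, bars are the mean over all probe sets of the gene with values under 30 set to 30, and grey bands are ± 1 SD of the gene over the 3 vehicle arrays (n = 3). At 8 hours the bars run from -1.58 for CAVIN2 to 1.04 for CAVIN1, and at 2 hours they lie between -0.50 and 0.04.

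Set against each other, the members diverged at 8 hours. The difference between the highest and the lowest ratio was 0.54, 2.62 and 1.93 on the log2 scale at 2, 8 and 24 hours. CAVIN2 was the lowest member at each of the 3 times. At 24 hours its place and the difference hold the ratio by which CAVIN2 was chosen, and are descriptions. Over detected probe sets only, EHD2 was the lowest at 2 hours, at -0.53. CAVIN1 minus CAV1, in which a scale factor of the whole array cancels, was 0.02, 1.63 and 0.26 at the successive times. CAVIN1 minus CAVIN2 was 0.53, 2.62 and 1.36 at the same times, of which the last holds the ratio that chose CAVIN2. Array differences that vary with intensity do not cancel in them. Under quantile normalization CAVIN1 minus CAV1 was 1.71 and CAVIN1 minus CAVIN2 was 2.28 at 8 hours. The order of the 6 at 8 hours was CAVIN2, CAV1, CAV2, CAVIN3, EHD2 and CAVIN1 from low to high. In that order the steps from CAV1 to CAV2 and from CAVIN3 to EHD2 were within the vehicle SD of the genes concerned. EHD2 in place of CAVIN1 was the highest member at 8 hours under quantile normalization, at 0.98, with the brightest probe set, at 1.45, and over detected probe sets only, at 1.25.

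The array pair of 8 hours was wide for the genes as a whole. The middle 90% of the 8936 ratios ran from -1.15 to 0.85 at 8 hours, from -0.37 to 0.33 at 2 hours and from -0.43 to 0.54 at 24 hours. The median of the members was -0.10, 0.12 and 0.04 at 2, 8 and 24 hours, and that of all genes was -0.04, -0.03 and 0.03. Quantile normalization moved the median probe-set ratio above the floor at 8 hours by 0.24, and the ratios at 8 hours were then 0.96 for CAVIN1, 0.98 for EHD2, 0.92 for CAVIN3, -0.50 for CAV2, -0.75 for CAV1 and -1.32 for CAVIN2, each in the same direction as before. The spiked control transcript read by the DapX 3′ probe set was 1630 in the HGF array and 701 in the vehicle array of 8 hours, and 1152 to 2322 in the other arrays. The part of such array differences in the members' ratios at 8 hours was not tested.

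**Figure D3:**
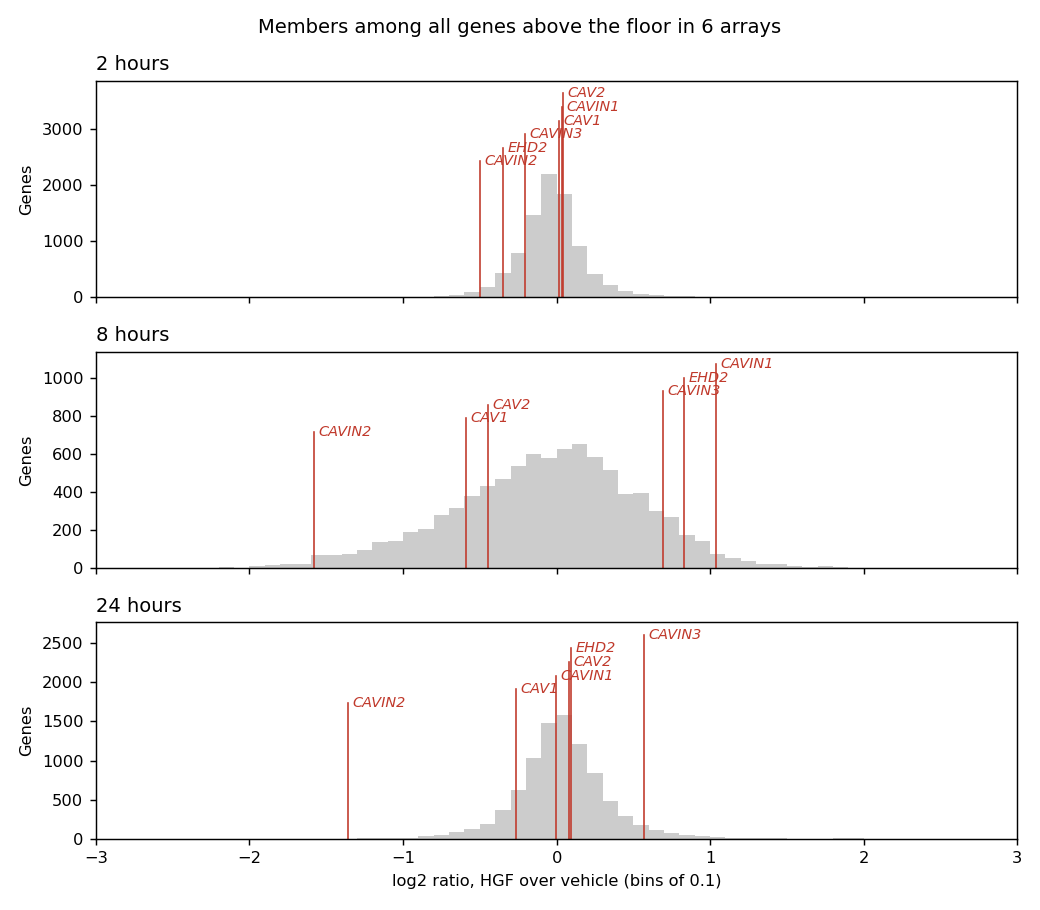
Histograms of the log2 ratio of HGF over vehicle for the 8936 genes above the floor in all 6 arrays, in bins of 0.1, at 2, 8 and 24 hours (grey), with the 6 members as red lines whose heights serve only to separate the labels. CAVIN2 lies at -0.50, -1.58 and -1.36 at the 3 times, and CAVIN1 at 0.04, 1.04 and -0.00.

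The limma fit to all 6 arrays, with time as a block, treats the 3 pairs as replicates of 1 HGF effect and so cannot hold an effect that turns with time. Its log2 difference was 0.36 (SE 0.25) for CAVIN1, 0.35 (SE 0.22) for CAVIN3, 0.19 (SE 0.25) for EHD2, -0.11 (SE 0.17) for CAV2 and -0.28 (SE 0.17) for CAV1, with adjusted p from 0.912 to 0.923. CAVIN2 stood at -1.15 (SE 0.25) in the same fit, which holds the ratio that chose it and is given as a description. Of 10002 genes, 4.03% had an unadjusted p under 0.05 for HGF, and none passed after adjustment, the smallest adjusted p being 0.165. No member was called for time after adjustment in any of the 3 comparisons of times, nor was any other gene, with 224, 356 and 167 genes at an unadjusted p under 0.05 for 8 over 2, 24 over 2 (3.56% of genes) and 24 over 8 hours.

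The muscle paralogs CAV3 and CAVIN4 were under the floor in all arrays, with highest readings of 4.6 and 10.8. Markers of other cells that are rich in caveolae were likewise under it: 0 of 3 endothelial, 0 of 3 adipocyte and 0 of 4 muscle markers passed in any array, and of 4 fibroblast markers COL1A1 passed. All 6 epithelial markers passed in all arrays. Of the markers of androgen-responsive luminal cells with a probe set, KLK3 passed and KLK2 and TMPRSS2 did not. In bulk RNA of this kind fewer cells of a type and less RNA per cell cannot be told apart.

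Among proteins that act at the caveolar neck or associate with the coat, 8 of 9 listed genes had a probe set and 2 of the 8 passed the fold rule at 8 hours, both higher in the HGF array, and none at 2 or 24 hours. The counts at 8 hours in this and the next lists stand against 5.45% of all genes higher and 16.2% lower in that pair of arrays. EHD1, a paralog of EHD2 that works in endocytic recycling, read 353, 650 and 349 on 209037_s_at in the HGF arrays of 2, 8 and 24 hours, against 229, 203 and 228 in the vehicle arrays. Over its 5 probe sets the log2 ratios of EHD1 were 0.71, 1.49 and 0.48 at those times. EHD4, another paralog, had ratios of 0.19, 0.54 and 0.20, with 900.0 in the HGF array and 430 in the vehicle array of 8 hours on 209536_s_at. Ratios at 8 hours of the others ran from -0.68 for ROR1, a receptor that binds CAVIN1, to 0.58 for PACSIN3, an F-BAR protein of muscle caveolae, and EHD3 stood at -0.10. The list's median ratios were -0.08, 0.20 and 0.05 at 2, 8 and 24 hours.

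Of 6 kinases that phosphorylate or bind caveolins and cavins, PRKCD was past the rule upward at 8 and 24 hours and YES1 downward at 8 hours. PRKCD encodes protein kinase C delta, the partner from which CAVIN3 takes its older name. Its probe set 202545_at read 104, 285 and 253 in the HGF arrays, against 105, 104 and 97.2 in the vehicle arrays, with log2 ratios of -0.01, 1.45 and 1.38. The HGF arrays of 8 and 24 hours were above all others and that of 2 hours was level with vehicle. YES1, a Src family kinase, had log2 ratios of -0.07, -0.69 and 0.56, and ABL1 and PRKCA stood at -0.14 and 0.18 at 24 hours. The list's medians were -0.04, 0.06 and 0.09.

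None of 5 flotillins and other raft scaffolds passed at any time, and their medians were 0.13, -0.11 and -0.07 at 2, 8 and 24 hours. FLOT1 had a ratio of 0.56 at 8 hours, and at 24 hours FLOT2, STOM and FLOT1 stood at -0.19, 0.16 and -0.07. Of 14 genes of the clathrin coat, the other main route of endocytosis, 13 had a probe set and 4 passed at 8 hours. The clathrin light chain gene CLTB and the adaptor gene AP2S1 were higher in the HGF array, at 0.75 and 0.84, and the adaptors EPS15 and PICALM were lower, at -1.22 and -0.69. None passed at 2 or 24 hours, when the clathrin list's medians were -0.02 and 0.01, against 0.21 at 8 hours, and the 3 largest of the others at 24 hours were BIN1 at -0.33, AP2B1 at 0.32 and DNM1 at -0.30. Under quantile normalization, chosen as an alternative after seeing the data, YES1 and PICALM no longer passed at 8 hours, DNM1 and BIN1 passed upward, and the lists together held 7 genes higher and 1 lower in place of 5 and 3. With centred ratios they held 6 and 3. In limma no gene of these lists was called for HGF after adjustment.

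**Figure D4:**
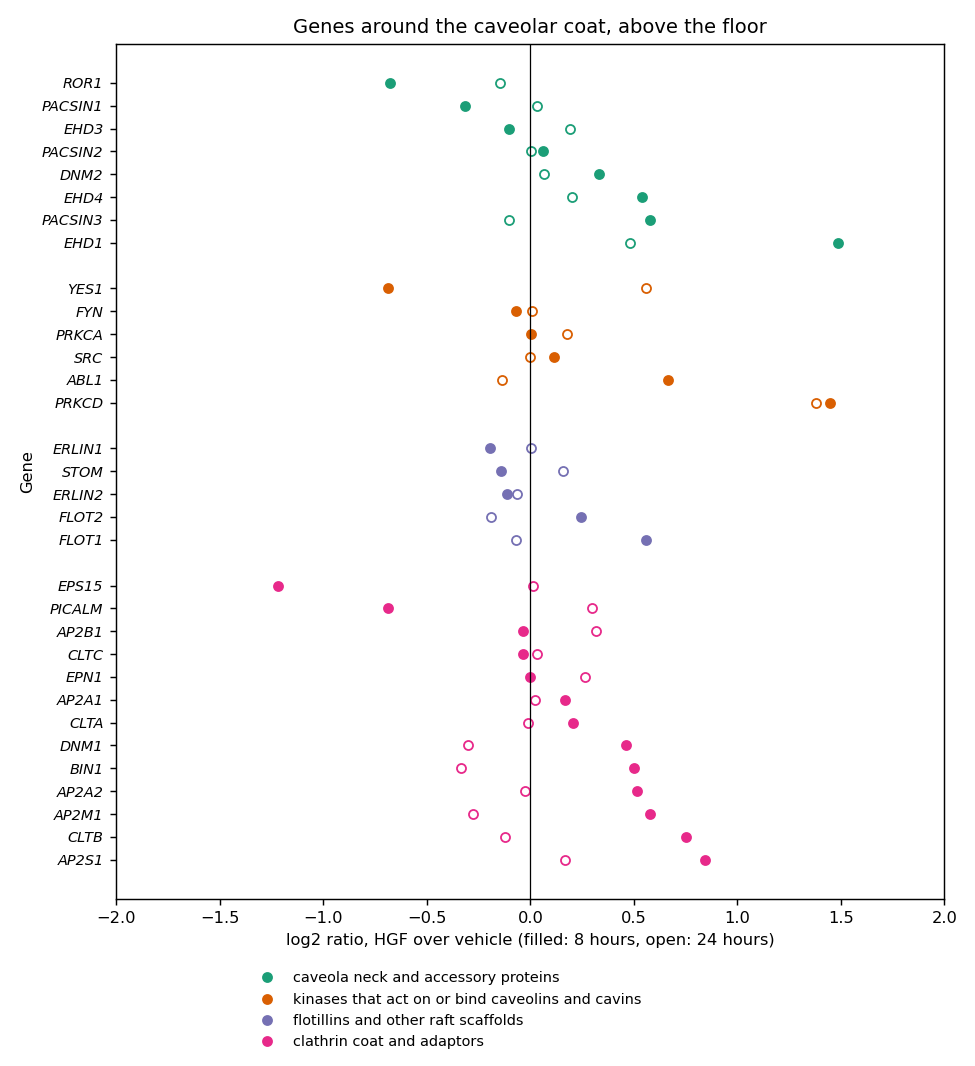
Log2 ratio of HGF over vehicle at 8 hours (filled) and 24 hours (open) for the listed genes above the floor in at least 1 array, sorted within each list by the 8 hour ratio; each point is 1 pair of arrays. EHD1 and PRKCD lie farthest right at 8 hours, at 1.49 and 1.45, and PRKCD keeps its place at 24 hours, at 1.38.

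CAV2 and CAV1 are neighbours on chromosome 7, between TES and MET. At 8 hours TES, CAV2, CAV1 and MET, in chromosome order, had log2 ratios of -0.38, -0.45, -0.59 and -1.66, and MET passed the fold rule downward. At 24 hours they stood at 0.09, 0.08, -0.27 and -0.07 in that order. On chromosome 2, next to CAVIN2, NABP1 had 0.65, -0.03 and 0.54 at 2, 8 and 24 hours and passed upward at 2 hours, and TMEFF2 was under the floor in all arrays. SLC39A10, 1 gene beyond TMEFF2, stood at -1.51 at 8 hours and passed downward. Beside EHD2 on chromosome 19, BICRA stood at -0.39, 0.79 and 0.01, and SELENOW, the second gene on the other side, stood at 0.94 at 8 hours and passed upward. CAPZA2, the next gene after MET, stood at -0.83 at 8 hours and passed downward. These 3 farther genes were named after their values were seen. Beside CAVIN1 on chromosome 17, STAT3 stood at 0.30 and ATP6V0A1 at 0.15 at 8 hours.

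Over the 6 arrays the genes whose log2 values ran most like those of CAVIN2, of 2479 genes with an SD of at least 0.3, were USP13 (Pearson's r 0.995), FAM210B (0.992), LIMCH1 (0.980), TGFBR3 (0.973) and AUH (0.972). Their log2 ratios at 24 hours were -0.66, -0.85, -0.70, -0.99 and -0.67. Within the family the correlation with CAVIN2 was 0.93 for CAV1, 0.71 for CAV2, -0.63 for CAVIN1, -0.69 for EHD2 and -0.88 for CAVIN3. These are descriptions over 6 arrays that share 1 cell line and 3 times, and the likeness includes the array pair of 24 hours. CAV1 varied by an SD under 0.3 and was not ranked.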

How the data were processed

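Total RNA of DU145 cells was labelled with biotin and hybridised to Affymetrix U133 Plus 2.0 arrays, 1 for each of 6 conditions. The intensity values were deposited by the authors as a single table made with MAS5 (version not given in the sources used here), with array means of 149 to 205 and 58.9% to 65.7% of values under 30. The common mean of 150 and the floor of 30, to which lower readings were raised, follow the study's methods. Those also name an RMA quantile step, which the deposited values do not show and which was run only as an alternative. Precision is limited by there being 6 arrays. Of 54675 probe sets, 41097 had 1 gene symbol, 1801 several and 11777 none in the platform annotation; only the first were used. Ratios are means of log2 values over a gene's probe sets. limma 3.58.1 in R 4.3.3 was fitted to the 10002 genes that passed 30 in 3 or more arrays, and p-values were adjusted by Benjamini-Hochberg, with calls at 0.05. The scripts were tested on simulated data. Named genes were all members, listed genes past the fold rule, up to 3 others of a list by their 24 hour ratio, neighbours and the 5 genes most like CAVIN2. The members and lists were chosen with earlier results of these data known. Alternatives were quantile normalization, centred ratios, other floors and folds, other probe-set summaries, other vehicle baselines, other limma models and leaving out each time.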

Additional observations from a re-analysis of the deposited data

Results flagged for a closer look

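EHD2 had a log2 ratio of HGF over vehicle of -0.35 at 2 hours and of 0.83 at 8 hours. The pairs of arrays moved in opposite directions, each by more than the SD of 0.155 of EHD2 over the 3 vehicle arrays. That SD is of single arrays and understates the spread of a ratio. With 1 array per condition the difference between the times was not tested.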

How the results depend on the processing

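With 1 array per condition the spread at a single time is unknown, and the limma fits lean on pairs of different times. HGF and vehicle arrays were paired by time in these fits, through the block for time. Without a floor, in which values under 30 were kept down to 1, the members past the fold rule became 1 at 2 hours (CAV2, lower) and 2 at 24 hours (CAV2 higher, CAVIN2 lower). CAV2 passed at those times through 213426_s_at, which was under 30 except for 32.5 in the HGF array of 24 hours. Between the vehicle arrays 2 comparisons passed, both of EHD2, through 205341_at at 21.8, 6.4 and 18.0 in time order. At 3-fold only 1 member, CAVIN2, passed at 8 hours. With the brightest probe set per gene, an alternative chosen after seeing the data, 3 accessory genes passed at 8 hours (EHD1, EHD4, PRKCD) in place of 8. The share of all genes past the rule was not taken without a floor, at 3-fold or with the brightest probe set. The counts in those settings therefore have no background beside them. limma called 2 genes for HGF with the brightest probe set and 3 without the block for time, and 1 gene each for 8 over 2 and 24 over 2 hours without the filter on low values. With probe sets in place of genes, 25 passed for HGF in the arrays of 2 and 8 hours. The limma difference of CAV2 changed sign to 0.012 with the brightest probe set and to 0.06 without the arrays of 8 hours, and that of EHD2 to -0.13 without them. The causes were not tested. CAVIN2 ran from -1.47 to -0.93 over the limma alternatives fitted to genes, and was called in none of them. Both ends come from fits that hold the 24 hour ratio by which it was chosen, so the range is a description. At 8 hours each member kept its direction in all 9 alternatives. At 24 hours CAV2, CAVIN1 and EHD2 did so in 8 of 10, and at 2 hours CAV1 and CAVIN1 did in 8 of 9 and CAV2 in 6 of 9. The alternatives use the same arrays and are not separate checks. Several cannot change a value, as for CAVIN3 with its 1 probe set, which stayed at 0.691 at 8 hours without a floor.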
